A study of Mus musculus with 4 samples.

Results

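The cells described here were double-positive (DP) thymocytes that came through a sort meant for invariant natural killer T (iNKT) cells. They were chosen by transcripts and not by surface protein. A cell was taken when it held at least 1000 unique molecular identifiers (UMIs, each standing for 1 captured transcript), at least 500 genes and under 10% mitochondrial UMIs, and when it met 3 conditions on genes. It had 0 UMIs of the B-cell gene Cd79a. It had at least 3 of the 7 genes Rag1, Rag2, Dntt, Cd8b1, Arpp21, Ptcra and Cd8a, with Rag1, Dntt or Arpp21 among them. It had under 3 UMIs of Nkg7 plus Il2rb, genes of mature iNKT and cytotoxic cells. This gate held 575 of 30167 cells that passed the quality limits, out of 30455 deposited barcodes. There were 215 such cells in WT 1, 67 in WT 2, 209 in ACC1 KO 1 and 84 in ACC1 KO 2.

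DP thymocytes carry both CD4 and CD8, and they are the stage at which the T cell receptor alpha chain is rearranged by the RAG recombinase. Early DP cells divide with a pre-T cell receptor, then leave the cycle, rearrange the alpha locus and wait for selection. iNKT cells branch off at this stage: a cell that joins the segments Trav11 and Traj18 is selected by CD1d on other DP thymocytes, with help from SLAM family receptors, and then turns on the regulator PLZF (Zbtb16). ACC1, encoded by Acaca, makes malonyl-CoA, the building unit of fatty acid synthesis.

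The study asked, per its title, about ACC1 in the survival of thymic iNKT cells. Thymocytes of mice 6 to 8 weeks old were enriched for CD1d tetramer binding on magnetic columns and sorted as CD3+ CD1d tetramer+ cells, and Chromium 3′ libraries were made from 2 WT and 2 ACC1 KO samples. Strain, sex, the number of animals per library, the Cre driver and the deleted stretch of Acaca were not stated in the labels, so whether DP thymocytes themselves lost the gene is not known from the labels. The labels call every sample iNKT cells. They do not say whether each library is its own animal. The p-values therefore rest on the spread between libraries, which may in part be technical.

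For contrast, 26116 comparison iNKT cells were taken from the same libraries. They passed the same quality limits, held 0 UMIs of Cd79a, Rag1, Dntt and Arpp21 and at least 3 UMIs of Nkg7 plus Il2rb. DP-gated cells were shallower, with median UMIs of 2219, 2872, 2702 and 3172 in the libraries in the order WT 1, WT 2, the first ACC1 KO and the second, an order kept for every set of 4 values below, against 4691, 6354, 4577 and 7411.5 in the comparison cells. Summed over DP-gated cells the libraries gave 864576, 275645, 1202468 and 502622 UMIs. Between 10 and 27 barcodes were shared by any pair of libraries, and 0 of them were DP-gated in both. A doublet caller would have removed 4, 1, 2 and 0 of the DP-gated cells in the same order.

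Some cells of each library lay near the limits of the gate. Just inside it, 21, 3, 20 and 8 cells per library had exactly 3 of the 7 genes. Just outside it, 9, 5, 8 and 10 cells had 2 of them. Farther out, 5, 11, 18 and 37 cells had only 1, and 2, 5, 7 and 31 of these held Zbtb16. A further 12, 9, 21 and 10 cells met the gene count and were kept out by Nkg7 plus Il2rb. Those had median depths of 8635, 9391, 6447 and 10122 UMIs, and 6, 5, 7 and 6 of them held Zbtb16.

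Of the genes that chose the cells, some were found in most of them and others in few. Rag1, a subunit of the recombinase, was detected in 84.2% of DP-gated cells in WT 1, 88.1% in WT 2, 78.5% in ACC1 KO 1 and 90.5% in ACC1 KO 2, against 0.12% to 0.40% of the cells with 3 or more UMIs of Nkg7 plus Il2rb. In the latter class 13, 11, 20 and 15 cells held 55, 35, 54 and 38 Rag1 UMIs. They include cells kept out of the gate by Nkg7 plus Il2rb alone. The part of free RNA, doublets or other cells in these values was not tested. Dntt, the terminal transferase that adds bases at receptor junctions, was found in 85.7% to 90.7% of cells, and Cd8b1, a chain of CD8, in 92.8% to 95.8%. Ptcra, the pre-T cell receptor alpha chain, was found in 16.7%, 9.0%, 25.8% and 17.9%, and Rag2, the other recombinase subunit, in 26.5%, 28.4%, 25.4% and 32.1%. These values describe the rule and were not tested.

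Genes that the rule did not name followed the DP label. Cd4 was detected in 60.5%, 80.6%, 60.8% and 85.7% of DP-gated cells, against 8.01%, 9.73%, 17.7% and 19.0% of the cells with Nkg7 plus Il2rb, whose depth was greater. Its level was 267, 464, 204 and 553 CPM (the UMIs of a gene per 1000000 UMIs of the sum) in the DP-gated sums and 18.9, 17.7, 43.5 and 35.0 CPM in the comparison cells, so every DP-gated sum lay above every comparison sum. Both coreceptor genes were thus present in these cells, although Cd4 and Cd8 in the same cell were not required.

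The rest of the DP program was described by a list of 19 genes outside the gate. For 17 of the 19 every DP-gated sum lay above every comparison sum, and for 1, Nrgn, every one lay below. Over all deposited genes these counts were 3569 above and 4704 below, the background for the list counts between the classes that follow. Of all those genes 17248 had 0 UMIs in every DP-gated sum. Cells were chosen on genes of the same libraries, so these differences are given as a description with no test. Aqp11, a member of the aquaporin family, stood at 268, 265, 190 and 223 CPM against 2.53 to 3.39 CPM. Themis, needed for positive selection, stood at 1808, 3483, 1059 and 2057 CPM against 22.5 to 42.9 CPM. Ccr9, a chemokine receptor of DP cells, stood at 503, 707, 222 and 312 CPM against 8.86 to 16.0 CPM. Nrgn stood at 0, 0, 9.15 and 0 CPM against 9.20 to 39.9 CPM. Cd28, a costimulatory receptor, overlapped, at 170 to 242 CPM against 237 to 309 CPM.

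Ranked by the smallest log2 fold over the 4 libraries with 20 CPM added, the 15 leading genes were 2610307P16Rik, Arpp21, Cd8a, Cd8b1, Dntt, Endou, Gm4258, Hist1h1b, Ly6d, Marcks, Myb, Rag1, Tcf7, Themis and Ube2c. Of these, 5 were gate genes. Endou stood at 393, 421, 245 and 456 CPM and stayed at or under 0.0947 CPM in the comparison cells. Tcf7, the T-lineage factor TCF1, stood at 1402, 1081, 1246 and 969 CPM against 61.4 to 76.5 CPM. The 10 genes furthest the other way were AW112010, Ccl5, Gm2682, Id2, Il7r, Klra9, Ly6c2, Ms4a4b, Nkg7 and S100a6. Nkg7 was used to choose both classes, so its place was fixed by the rule. Id2, an inhibitor of E proteins, stood at 6.94, 21.8, 32.4 and 9.95 CPM in DP-gated cells against 879 to 1520 CPM.

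**Figure D1:**
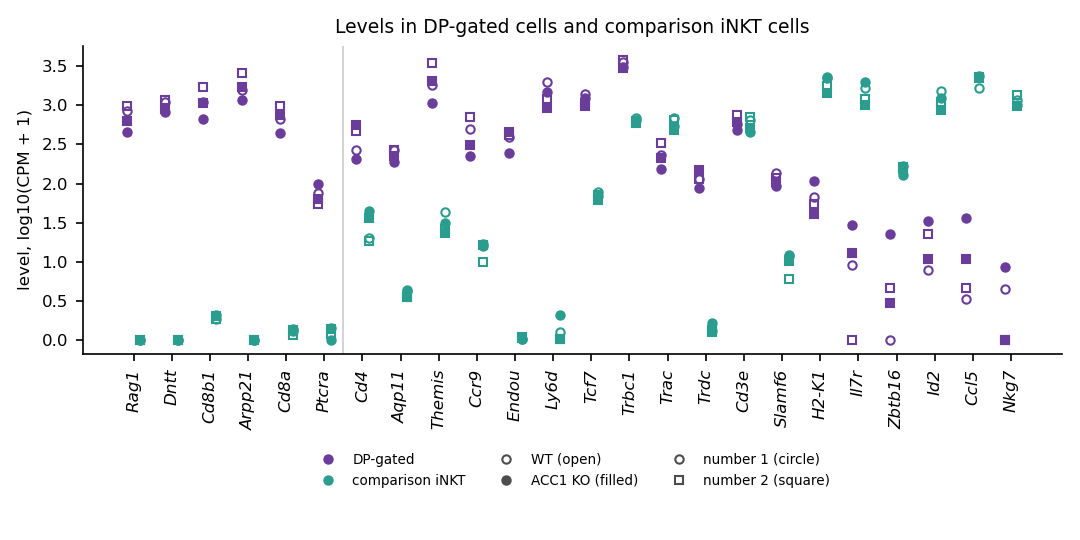
Levels of 24 genes as log10(CPM + 1) in DP-gated cells (purple) and comparison iNKT cells (green), 1 point per library, with WT open and ACC1 KO filled. The 6 genes left of the line belong to the gate, as does Nkg7 at the far right, which was used to keep cells out. Between them Cd4, Aqp11, Themis, Ccr9 and Endou are high in DP-gated cells while H2-K1, Il7r, Id2 and Ccl5 are high in comparison iNKT cells.

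Antigen presentation and survival genes also set the classes apart. H2-K1, a classical MHC class I heavy chain, stood at 67.1, 54.4, 107 and 39.8 CPM in DP-gated cells against 1428 to 2313 CPM, and B2m, its light chain, at 218 to 250 CPM against 1419 to 2124 CPM. Il7r, the interleukin-7 receptor, stood at 8.10, 0, 28.3 and 11.9 CPM against 1011 to 1960 CPM. Bcl2 stood at 25.4 to 38.2 CPM against 452 to 1004 CPM. Bcl2l1, which encodes the survival factor BCL-xL of DP cells, ran the other way at 175, 221, 92.3 and 167 CPM against 18.3 to 20.4 CPM.

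Beta chain transcripts were higher and alpha chain transcripts lower in the DP-gated sums. The beta constant gene Trbc1 stood at 3616, 3835, 3070 and 2996 CPM in DP-gated cells against 594 to 695 CPM in the comparison cells. The alpha constant gene Trac ran the other way, at 230, 330, 154 and 209 CPM against 482 to 691 CPM. In DP-gated cells outside the cell cycle, described below as quiet cells, the Trac levels overlapped those of the comparison cells. Trdc, the delta constant gene that lies inside the alpha locus and is deleted by alpha joining, stood at 113, 112, 87.3 and 149 CPM against at most 0.651 CPM, while the gamma constant gene Tcrg-C1 was at 0 to 9.95 CPM against 37.4 to 71.7 CPM.

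The invariant chain itself was looked for by its segments. Trav11 had 0 UMIs in 575 DP-gated cells, which allows a share of cells with a UMI of up to 0.522%. Per library, 0 cells allow up to 1.40%, 4.48%, 1.44% and 3.57%, against 2.32%, 3.59%, 1.64% and 3.72% of the cells with Nkg7 plus Il2rb. The exact binomial upper limits are wider, at 1.7%, 5.36%, 1.75% and 4.30%, and of these only the one of WT 1 lay below the share of the deeper cells. Reads of Trav11 can also be split with its near-identical copy Trav11d. Traj18, the joining segment of the invariant chain, had a UMI in 0, 4, 1 and 4 DP-gated cells, which is 0%, 5.97%, 0.478% and 4.76%, against 5.79%, 10.1%, 4.03% and 10.5%. Its sequence is shown because it is the germline part that every invariant chain carries. It lies on the plus strand at chr14:54200777-54200842 (mm10, GENCODE M21). The capitals mark the 12 bases that encode the joining-segment motif of phenylalanine, glycine, alanine and glycine.
Traj18: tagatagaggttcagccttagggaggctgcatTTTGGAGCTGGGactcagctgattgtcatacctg
All 9 DP-gated cells with a Traj18 UMI had exactly 1, and 0 of the 9 held Zbtb16, Cd69 or Egr2, genes that turn on when an iNKT precursor is selected. A transcript of the unrearranged locus can also hold this segment, and a 3′ library does not tell them apart.

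The beta variable segments told the classes apart more plainly. iNKT cells of the mouse use mainly Trbv13, Trbv29 and Trbv1. In DP-gated cells these made up 21.7%, 30.8%, 20% and 31.4% of 120, 26, 135 and 51 Trbv UMIs, or 23.2% of 332 in all. In the comparison cells they made up 64.0%, 65.2%, 64.5% and 63.9%, or 64.5% of 5212. In every library the share in DP-gated cells was below that of the comparison cells.

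Genes of the iNKT1 subset were low, and those of other iNKT lists were mixed. The 11 genes of an iNKT1 list, among them Tbx21, Ifng and Xcl1, were all lower in DP-gated cells in every library, and summed to 9.25, 14.5, 70.7 and 15.9 CPM against 4515 to 5212 CPM. An iNKT2 list of 8 genes summed to 269 to 397 CPM against 1208 to 1568 CPM, with 5 of the 8 below in every library and 0 above. An iNKT17 list of 8 genes was low in both classes and overlapped, at 26.6, 7.26, 24.1 and 17.9 CPM against 35.9, 29.9, 20.8 and 11.6 CPM. Comparison cells were chosen by Nkg7 plus Il2rb, so their subset levels depend on that rule and do not describe all iNKT cells. A list of 16 iNKT lineage genes summed to 907 to 1103 CPM against 1052 to 1597 CPM, with 6 genes below and 4 above in every library, the 4 being Slamf1, Slamf6, Sh2d1a and Hivep3. Il2rb is among the 6, and it was used to choose both classes, so its place was fixed by the rule. Zbtb16 was found in 0, 1, 3 and 1 DP-gated cells, and 20 of the 26 UMIs in ACC1 KO 1 lay in 1 cell. Cd69, an early mark of receptor signalling, was found in 3.26%, 5.97%, 2.87% and 16.7% of DP-gated cells, against 24.8%, 33.8%, 27.6% and 47.7%. The SLAM genes that DP cells offer to iNKT precursors were present. Slamf1 stood at 53.2, 109, 38.3 and 83.6 CPM against 3.3 to 5.31 CPM, Slamf6 at 91.5 to 136 CPM against 5.03 to 11.2 CPM, and Cd1d1, the presenting molecule, at 24.9 to 61.7 CPM against 6.63 to 14.2 CPM.

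Markers of other cells were checked by list. Of 12 myeloid genes 2 were at 0 in all libraries, and the list summed to 7.26 to 70.6 CPM in DP-gated cells against 267 to 403 CPM. Of 6 erythroid genes 4 were at 0, with sums of 0 to 3.33 CPM. The B-cell list of 11 genes summed to 1168 to 2290 CPM against 92.4 to 115 CPM, nearly all of it from Ly6d and Ighm, which immature thymocytes also transcribe. The thymic stroma list of 7 genes was higher in DP-gated cells, at 97.2, 181, 68.2 and 129 CPM against 22.7 to 26.0 CPM. Nearly all of that came from Pecam1, at 86.7, 174, 56.5 and 115 CPM, and the keratins Krt5 and Krt8, the collagen Col1a1 and Pdgfra were at 0. The gamma delta list of 6 genes summed to 113 to 171 CPM against 123 to 278 CPM, with Trdc above and 4 genes below in every library. The part of these transcripts in the results below was not tested.

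DP-gated cells fell into cycling and quiet cells. Of 28 genes of G2 and mitosis, 390 of the 575 cells had 0 to 2, 23 had 3 to 8 and 162 had 9 or more, and cells with at least 3 were called cycling. Just outside that limit 61 cells had exactly 2, and just inside it 10 had exactly 3. Cycling cells numbered 57 in WT 1, 12 in WT 2, 96 in ACC1 KO 1 and 20 in ACC1 KO 2. They were deeper, with median UMIs of 8162, 8008.5, 9606.5 and 10518 against 1921, 2649, 1557 and 2586 in quiet cells. In every library cycling cells thus weighed more in the DP-gated sums than their share of cells. Levels and genotype changes read from those sums carry that weight.

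The 2 states differed in the genes of receptor rearrangement. They were split by genes of the same cells, so this is a description with no test. Rag1 stood at 303, 255, 179 and 254 CPM in cycling cells, and at 1711, 1618, 1750 and 1239 CPM in quiet cells. Trac stood at 112, 139, 79.3 and 68.3 CPM against 422, 498, 512 and 430 CPM. Trdc was turned round, at 174, 225, 101 and 215 CPM in cycling cells against 15.2, 13.7, 19.3 and 46.1 CPM in quiet cells. The 2 states did not overlap in CPM in any of these 3 genes. CPM is a share of UMIs, and cycling cells were deeper. By cells with a UMI the Trac order did not hold. Trac was found in 56.1%, 66.7%, 46.9% and 50% of cycling cells, against 46.8%, 52.7%, 46.9% and 64.1% of quiet cells.

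The same order held for genes of the early and late stage. Ptcra stood at 91.5, 92.9, 105 and 65.1 CPM in cycling cells against 48.6, 20.5, 62.8 and 56.3 CPM, higher in cycling cells of each library. Ccr9 stood at 142, 294, 45.2 and 81.4 CPM against 1091, 1072, 1073 and 676 CPM, and Cd4 at 108, 178, 95.4 and 150 CPM against 526, 717, 725 and 1188 CPM. Dntt stood at 990, 1169, 728 and 765 CPM in cycling cells against 1319, 1167, 1271 and 1126 CPM, lower in cycling cells of 3 libraries and level in WT 2. By cells with a UMI Dntt ran the other way, at 98.2%, 100%, 97.9% and 100% of the deeper cycling cells. In quiet cells it was 88.0%, 83.6%, 84.1% and 81.25%. Cd4 was found in 49.1%, 75%, 55.2% and 75% of cycling cells against 64.6%, 81.8%, 65.5% and 89.1%. The part of depth in these values was not tested. The 10 genes furthest toward quiet cells were Adam12, Arap2, Cd52, Fhit, Malat1, Patj, Rag1, Smoc1, Tnik and Txk. Smoc1 stood at 0, 0, 4.02 and 6.51 CPM in cycling cells against 152, 266, 160 and 148 CPM in quiet cells. Outside the G2 and mitosis list, the 10 furthest toward cycling cells were Cdca3, Cdca8, Cks1b, Hist1h1b, Hmgb2, Pbk, Pclaf, Spc24, Spc25 and Tuba1b, genes of chromosome segregation, chromatin and tubulin.

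**Figure D2:**
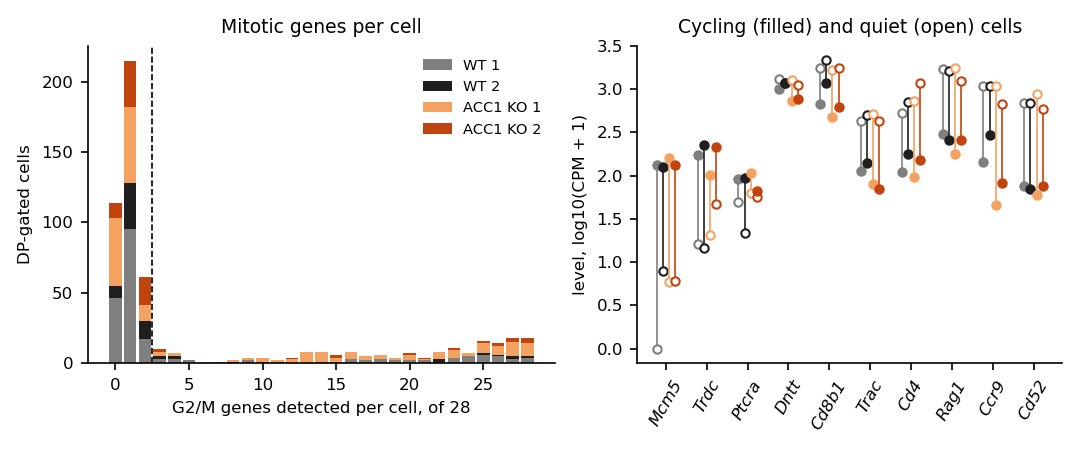
Left, number of DP-gated cells by how many of 28 G2 and mitosis genes were detected, stacked by library, with the limit of 3 genes as a dashed line. Right, levels as log10(CPM + 1) of 10 genes in cycling (filled) and quiet (open) DP-gated cells, 1 line per library, where Trdc is higher in cycling cells and Rag1, Trac, Cd4 and Ccr9 in quiet cells of every library.

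Some lipid genes differed between the states, and most overlapped. Over all 7411 genes tested below, 15.6% had all cycling values above all quiet ones and 22.3% had all below. Of 19 genes of cholesterol synthesis and SREBP2 targets 6 lay above and 0 below, of 14 fatty acid synthesis genes 1 and 1, of 16 genes of uptake, efflux and storage 2 and 7, and of 13 fatty acid oxidation genes 3 and 2. Acly, which makes cytosolic acetyl-CoA, overlapped at 57.3 to 85.2 CPM in cycling and 39.5 to 76.8 CPM in quiet cells. Fabp5, a fatty acid binding protein, stood at 357, 132, 496 and 267 CPM in cycling cells against 33.4, 13.7, 33.8 and 10.2 CPM in quiet cells. Hmgcs1, an enzyme of the mevalonate pathway, stood at 50.4, 101, 56.2 and 45.6 CPM against 15.2, 13.7, 14.5 and 10.2 CPM. The sterol exporter Abcg1 ran the other way, at 22.4, 23.2, 42.2 and 42.3 CPM against 179, 212, 218 and 164 CPM, and so did Lipa, the lysosomal lipase, at 15.5 to 56.0 CPM against 118 to 239 CPM. In these 4 genes no cycling value overlapped a quiet one.

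The share of DP-gated cells followed the replicate number of the libraries more than the genotype. It was 3.94% of quality-passing cells in WT 1 (95% interval 3.44% to 4.49%, exact binomial, counting error only), 0.677% in WT 2 (0.525% to 0.859%), 3.33% in ACC1 KO 1 (2.9% to 3.81%) and 0.983% in ACC1 KO 2 (0.785% to 1.22%). Both libraries numbered 1 lay above both numbered 2, and the genotypes overlapped. The mean was 2.31% ± 2.31 (SD, n = 2) in WT and 2.16% ± 1.66 (SD, n = 2) in ACC1 KO, a difference of -0.150 percentage points (exact two-sided permutation test, p = 1, where 2 against 2 cannot go below 0.33). Within number 1 the difference was -0.607 points and within number 2 it was 0.306 points. The libraries numbered 2 were also deeper, with 72803841 and 74190167 UMIs in all against 29066597 and 33205137. Summed over DP-gated cells, Xist, the X-inactivation RNA of females, had 0, 322, 0 and 590 UMIs, and the Y-linked Ddx3y had 86, 0, 68 and 0, so sex, depth and number moved together and cannot be told apart. The labels do not say what the numbers stand for. The share depends on the sort, so it does not measure the DP compartment of the thymus.

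The cycling share was higher in ACC1 KO within both numbers, but at the limit of 3 genes the genotypes overlapped. It was 26.5% in WT 1 (20.7% to 32.9%), 17.9% in WT 2 (9.61% to 29.2%), 45.9% in ACC1 KO 1 (39.0% to 52.9%) and 23.8% in ACC1 KO 2 (15.2% to 34.3%). The means were 22.2% ± 6.08 (SD, n = 2) and 34.9% ± 15.6 (SD, n = 2), a difference of 12.7 points (exact two-sided permutation test, p = 0.667). Within number 1 it was 19.4 points and within number 2 it was 5.90 points. With every DP-gated cell thinned to 1000 UMIs, none of them being shallower, an alternative chosen after seeing the data, the shares were 21.4%, 13.4%, 39.2% and 19.0%, in the same order of libraries. With the gate itself applied to cells thinned to 1000 UMIs, also chosen after seeing the data, it took 181, 57, 136 and 69 cells, the cycling shares by all their UMIs were 19.9%, 10.5%, 22.1% and 24.6%, and the difference was 8.14 points, 2.17 within number 1 and 14.1 within number 2. At a limit of 2 G2 and mitosis genes the shares were 34.4%, 37.3%, 51.2% and 47.6%, where the genotypes did not overlap (exact two-sided permutation test, p = 0.33, the smallest it can give), and at a limit of 5 they were 23.7%, 11.9%, 43.5% and 21.4% and overlapped. Without ACC1 KO 1 the difference was 1.60 points.

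**Figure D3:**
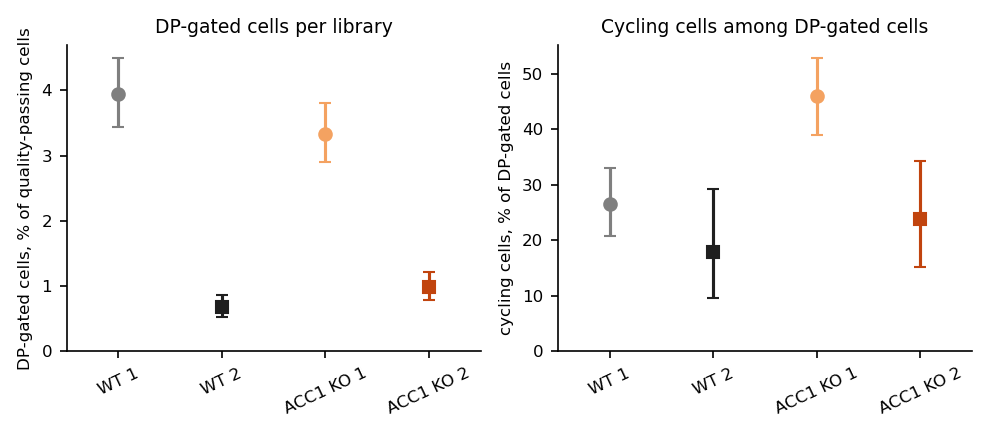
Left, DP-gated cells as a percent of quality-passing cells, and right, cycling cells as a percent of DP-gated cells, 1 point per library with exact binomial 95% intervals. On the left WT 1 and ACC1 KO 1 sit above WT 2 and ACC1 KO 2, and on the right ACC1 KO 1 is highest at 45.9%.

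Genotype was then tested gene by gene on UMI counts summed over the DP-gated cells of each library. At an adjusted p under 0.05, 0 of 7411 genes (0%) were called by edgeR's quasi-likelihood test, with 231 at an unadjusted p under 0.05 and a smallest adjusted p of 0.978. DESeq2 also called 0, with 39 at an unadjusted p under 0.05. With the replicate number, with which depth and the sex-linked genes moved, as a block in the fit, 556 were called. With the same block 2 of 4096 genes were called in quiet cells alone, whose sums held fewer UMIs. On simulated counts of the same depth the edgeR test recovered 97.0% of genes changed 4-fold and 59% of genes changed 2-fold. The simulated libraries shared the same gene means and a fixed spread, and only well-counted genes were changed, so real recovery may be lower. In plain CPM, 11.6% of the genes tested had both ACC1 KO values above both WT values and 21.9% had both below, the background for the counts that follow. In bulk sums of this kind fewer cells of a state and less RNA per cell cannot be told apart.

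Acaca, the targeted gene (chr11:84129672-84401651, plus strand), was not lower in ACC1 KO. It had 25.4 CPM in WT 1, 47.2 in WT 2, 59.9 in ACC1 KO 1 and 79.6 in ACC1 KO 2, from 22, 13, 72 and 40 UMIs. The genotypes thus did not overlap. Its log2 fold change was 1.15 with an SE of 0.41 (edgeR adjusted p = 0.978, and 0.0046 with the replicate block). Within number 1 it was 1.15 and within number 2 it was 0.72. Tags at the 3′ end do not check the deletion, since the deleted stretch is not given and may lie elsewhere in the gene.

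Cell cycle genes had mostly positive log2 fold changes in ACC1 KO, where the cycling share was also higher within both numbers. Of 28 S phase genes 0 were called, all 28 had a positive log2 fold change and the median was 0.59, against 0.0039 over all genes tested. In 5 of them both ACC1 KO values were above both WT values and in 0 below, against 11.6% and 21.9% of all genes. Of 28 G2 and mitosis genes 0 were called, 26 were positive with a median of 0.39, and 9 lay above and 0 below. Mki67 stood at 360 and 327 CPM in WT and at 493 and 448 CPM in ACC1 KO. The part of the cycling share in these values was not tested apart from it.

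Genes of the DP stage had mostly negative log2 fold changes. Of 18 tested genes of the DP program 0 were called, 7 lay below without overlap and 0 above, and the median log2 fold change was -0.28. Ccr9 stood at 503 and 707 CPM in WT and 222 and 312 CPM in ACC1 KO, with no overlap, and the log2 fold change was -1.07 with an SE of 0.33 (edgeR adjusted p = 0.978, and 1.2e-13 with the replicate block), and -1.17 within each number. In quiet cells alone, its 4 levels were those given above, with WT at 1091 and 1072 CPM and ACC1 KO at 1073 and 676 CPM, and with cycling cells left out the log2 fold change was -0.26. Gate genes chose the cells and are given with no test. Rag1 stood at 839 and 980 CPM in WT against 449 and 637 CPM in ACC1 KO, and in quiet cells alone at 1711 and 1618 CPM against 1750 and 1239 CPM, where the genotypes overlapped. Of 11 receptor genes tested 0 were called, and 5 lay below and 0 above.

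Of other lists, glycolysis genes lay more often above and glucocorticoid response genes more often below, read against the background of 11.6% and 21.9%. Of 15 glycolysis genes tested 0 were called, 8 lay above and 1 below, with a median log2 fold change of 0.41. Ldha, lactate dehydrogenase A, stood at 311 and 239 CPM in WT and 430 and 328 CPM in ACC1 KO, and was higher in cycling than in quiet cells of each library, at 394, 317, 468 and 423 CPM against 176, 171, 247 and 179 CPM. Of 16 survival genes tested 5 lay below and 2 above (median -0.12). Of 10 glucocorticoid response genes 5 lay below and 1 above (median -0.30). Of 13 fatty acid oxidation genes 2 lay below and 2 above (median -0.05). None of these lists held a called gene.

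Lipid synthesis was the pathway of the targeted enzyme. In the comparison iNKT cells the genes of this pathway were mostly higher in ACC1 KO: of 26 tested genes of cholesterol synthesis and SREBP2 targets 23 lay above without overlap and 0 below, against a background of 10.2% above and 21.2% below in those cells, with a median log2 fold change of 0.72. In DP-gated cells 19 of the 27 listed genes passed the filter on low counts, of which 0 were called, 5 lay above and 0 below, with a median of 0.19. Of 24 fatty acid synthesis genes 14 passed in DP-gated cells, 2 above and 2 below with a median of 0.32, and 20 in comparison cells, 11 above and 1 below with a median of 0.37. Of 25 genes of uptake, efflux and storage 16 passed in DP-gated cells, 1 above and 6 below with a median of -0.09.

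Promoters of a pair of these genes are shown, Acsl3 because its genotype change differed between the classes as given below, and Hmgcs1 because, once the letters were read, it was the 1 matched gene of the list with a sterol response element. Acsl3 is an acyl-CoA synthetase and Hmgcs1 an early enzyme of the mevalonate pathway. Each run is the 250 bases before the RefSeq start (GRCm38.p6), on the plus strand, at chr13:119690101-119690350 and chr1:78657575-78657824. Capitals mark matches, on either strand, to TCACNCCAC, a sterol response element, and to CCAAT, the NF-Y box.
Hmgcs1: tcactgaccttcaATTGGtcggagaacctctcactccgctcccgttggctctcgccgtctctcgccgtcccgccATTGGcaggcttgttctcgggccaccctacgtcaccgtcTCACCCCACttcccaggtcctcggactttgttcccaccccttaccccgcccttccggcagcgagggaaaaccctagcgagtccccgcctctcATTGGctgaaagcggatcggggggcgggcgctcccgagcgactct
Acsl3: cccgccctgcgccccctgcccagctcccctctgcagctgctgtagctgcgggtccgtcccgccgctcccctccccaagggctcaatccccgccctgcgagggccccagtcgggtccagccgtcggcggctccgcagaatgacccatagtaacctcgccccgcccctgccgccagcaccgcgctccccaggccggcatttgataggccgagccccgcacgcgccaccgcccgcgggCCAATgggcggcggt
Hmgcs1 held 1 match to TCACNCCAC, 137 bases before the start, and 3 to CCAAT. Acsl3 held 0 and 1. Of all 32851 promoters of this length 1.05% held TCACNCCAC and 33.8% held CCAAT. Promoters were matched for 19 of the 27 cholesterol genes, 25 promoters in all, of which 4% and 68% held the motifs. For 21 of the 24 fatty acid genes, again 25 promoters, it was 0% and 56%. A match describes letters and shows no binding.

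Whether the genotype change differed between the classes was tested in 1 model that held 8 sums, a DP-gated and a comparison sum from each of the 4 libraries, and that fitted each library its own level. Of 13424 genes, 8 (0.0596%) had a change that was lower in DP-gated cells than in comparison iNKT cells and 3 (0.0223%) one that was higher, at an edgeR adjusted p under 0.05. Scd2, Aff3, Ccr9, Nebl, Fads2, Plxdc2 and Acsl3 were among the 8, and the 3 were Gna15, Zbtb16 and Atp8b4. Scd2, Fads2 and Acsl3 are lipid enzymes. DESeq2 called Scd2 and Aff3 alone. On simulated counts with a fixed spread the edgeR test recovered 91% of 4-fold and 7.5% of 2-fold differences in well-counted genes. Smaller ones were thus mostly out of reach, and real recovery may be lower.

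Scd2 gave the firmest difference. It encodes a stearoyl-CoA desaturase, which puts the first double bond into saturated fatty acids (chr19:44293674-44306864, plus strand). In DP-gated cells it stood at 97.2 CPM in WT 1, 160 in WT 2, 126 in ACC1 KO 1 and 125 in ACC1 KO 2, from 84, 44, 152 and 63 UMIs. Both ACC1 KO values lay between the WT values, and the log2 fold change was 0.13 ± 0.34 (SE; edgeR adjusted p = 0.978). In comparison iNKT cells it stood at 35.7, 25.5, 220 and 241 CPM, with a log2 fold change of 2.99 ± 0.19 (edgeR adjusted p = 0.083, DESeq2 adjusted p = 5.7e-42). WT DP-gated cells thus held more Scd2 than WT iNKT cells, and ACC1 KO DP-gated cells less than ACC1 KO iNKT cells. The difference of the changes was -2.78 ± 0.34 (edgeR adjusted p = 6.9e-12), and it passed in all 13 alternatives, at -3.3 to -2.18 with an adjusted p of at most 0.021.

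Acsl3 showed the same layout with fewer counts. Acsl3 stood at 31.2, 36.3, 40.7 and 21.9 CPM in DP-gated cells, where the genotypes overlapped, and at 6.25, 6.4, 25.2 and 26.6 CPM in comparison iNKT cells, where they did not. The difference was -1.98 ± 0.47 (edgeR adjusted p = 0.036) and passed in 2 of 13 alternatives. Leaving out any 1 of the 4 libraries ended the call.

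Fads2, a desaturase that acts on polyunsaturated fatty acids, was higher in ACC1 KO in both classes, from unlike levels in WT. DP-gated cells held 7, 1, 23 and 10 UMIs, or 8.10, 3.63, 19.1 and 19.9 CPM, so ACC1 KO lay above WT without overlap (log2 fold change 1.59 ± 0.61, edgeR adjusted p = 0.978). Comparison iNKT cells held 0, 0, 98 and 323 UMIs, at least 140-fold more in ACC1 KO with a floor of 3 counts over the WT group. The fitted difference of -7.52 (edgeR adjusted p = 0.017) rests on those zeros and is not a measure of size. It passed in 4 of 12 alternatives, and not without WT replicate 1, ACC1 KO replicate 1 or ACC1 KO replicate 2. Scd1, the desaturase related to Scd2, had 2, 0, 1 and 0 UMIs in DP-gated cells and 1, 3, 361 and 906 in comparison cells, where it was the 1 gene that edgeR called for genotype (adjusted p = 0.0065).

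Regulators and an exporter had negative differences that did not pass. Srebf1, the SREBP1 gene, stood at 27.8, 29, 25.8 and 19.9 CPM in DP-gated cells and at 20.7, 17.6, 60.7 and 61.2 CPM in comparison cells (difference -1.84 ± 0.46, edgeR adjusted p = 0.071). Insig1, which holds SREBP in the endoplasmic reticulum, stood at 16.2, 36.3, 32.4 and 25.9 CPM against 8.22, 8.50, 24.6 and 28.5 CPM (difference -1.19 ± 0.51, edgeR adjusted p = 1). Abcg1 stood at 82.1, 123, 72.4 and 89.5 CPM against 96.6, 86.5, 179 and 200 CPM (difference -1.27 ± 0.35, edgeR adjusted p = 0.17). Fdps, an enzyme of the mevalonate pathway, stood at 82.1, 65.3, 117 and 107 CPM against 15.4, 21.2, 51.5 and 63.5 CPM, above WT without overlap in both classes (difference -1.06 ± 0.34, edgeR adjusted p = 0.51). Aldoc had 0 UMIs in all DP-gated cells.

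**Figure D4:**
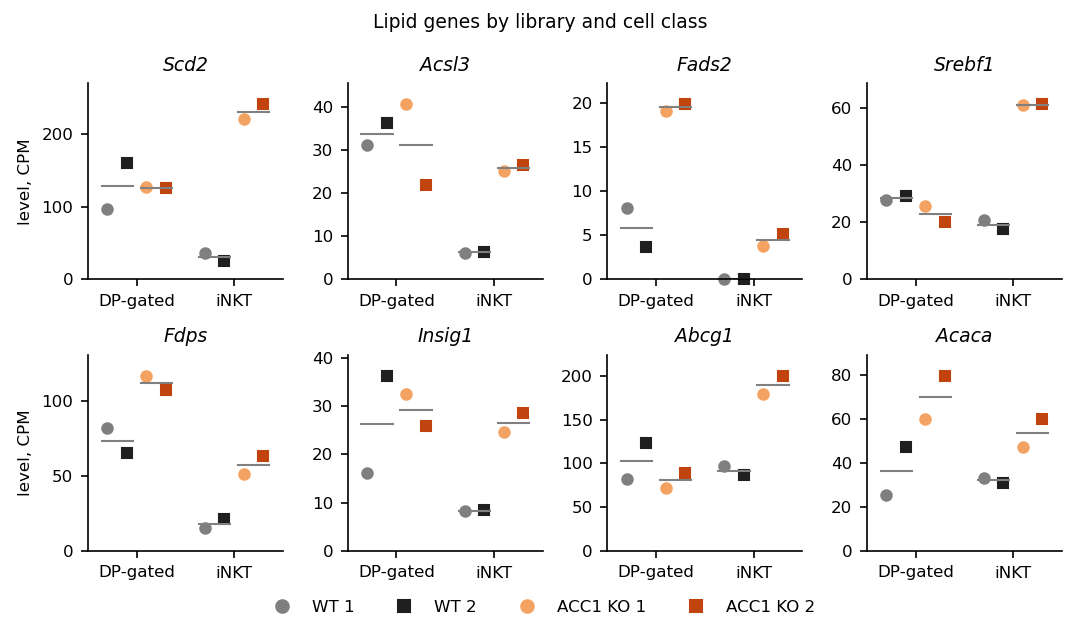
Levels in CPM of 8 lipid genes in DP-gated cells (left of each panel) and comparison iNKT cells (right), 1 point per library with grey bars at the genotype means. In Scd2, Acsl3, Insig1 and Abcg1 the genotypes separate in comparison iNKT cells and overlap in DP-gated cells, while Acaca and Fdps are higher in ACC1 KO in both.

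**Figure D5:**
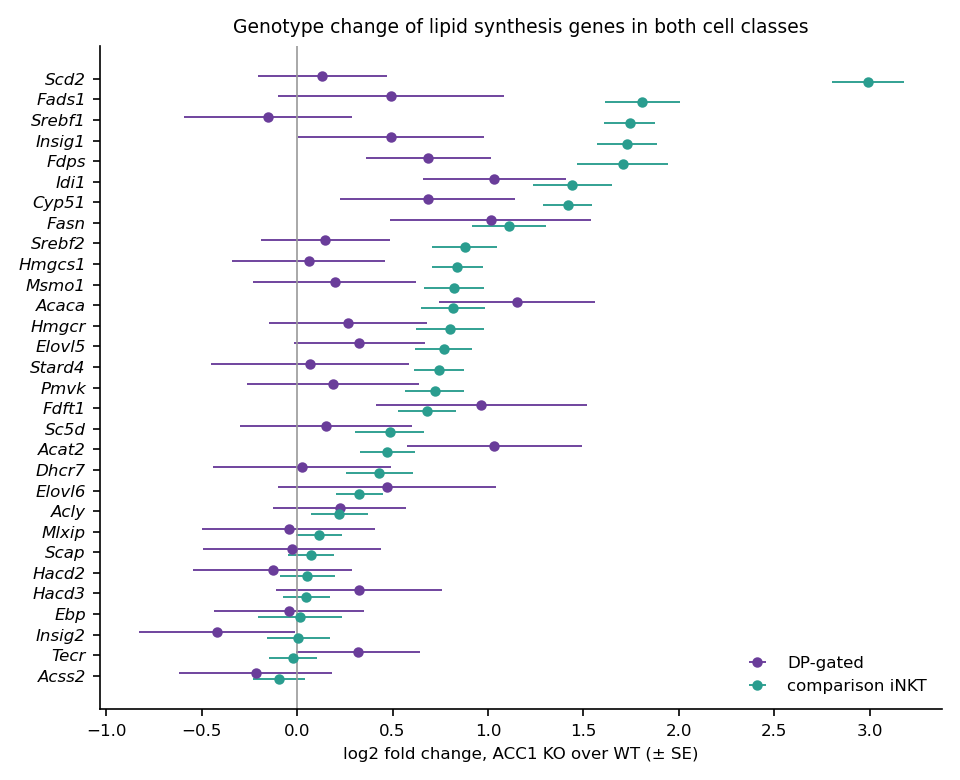
Log2 fold changes of ACC1 KO over WT with SE worked back from the edgeR F statistic for 30 genes of fatty acid and cholesterol synthesis, in DP-gated cells (purple) and comparison iNKT cells (green), ordered by the change in iNKT cells. In 23 of the 30 the change is smaller in DP-gated cells, and Fads2 is left out because its WT iNKT sums are 0.

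The other called differences lay outside lipid metabolism. Aff3, a nuclear factor of lymphocytes, stood at 637, 958, 319 and 786 CPM in DP-gated cells, with overlap, and at 37.1, 45.4, 74.9 and 119 CPM in comparison cells, with both ACC1 KO values higher (difference -1.77 ± 0.34, edgeR adjusted p = 0.0012). It passed in 10 of 13 alternatives. It did not pass without ACC1 KO replicate 1 or ACC1 KO replicate 2. With cycling cells left out of both classes its difference was -1.56 and still passed.

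Ccr9, Nebl and Plxdc2 are DP-stage transcripts that are scarce in iNKT cells. The Ccr9 difference was -1.55 ± 0.32 (edgeR adjusted p = 0.0053), and -0.65, no longer passing, with cycling cells left out of both classes. It also did not pass without WT replicate 2, ACC1 KO replicate 1 or ACC1 KO replicate 2. Nebl stood at 242, 210, 138 and 207 CPM against 6.97, 9.99, 15.9 and 21.4 CPM (difference -1.52 ± 0.32, edgeR adjusted p = 0.0053), and did not pass without WT replicate 1, ACC1 KO replicate 1 or ACC1 KO replicate 2. Plxdc2 stood at 234, 548, 117 and 334 CPM against 0.491, 2.62, 1.42 and 3.55 CPM (difference -1.49 ± 0.35, edgeR adjusted p = 0.036). Without cycling cells it was -0.74 and did not pass, nor did it without WT replicate 1, ACC1 KO replicate 1 or ACC1 KO replicate 2.

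The 3 genes with a higher change in DP-gated cells rested on few cells. Gna15, a G protein subunit, had 1, 0, 34 and 4 UMIs, and 32 of the 34 in ACC1 KO 1 lay in 1 cell (difference 4.72 ± 0.99, edgeR adjusted p = 0.0057). With cycling cells left out of both classes the fitted Gna15 difference was -7.73, and it did not pass without WT replicate 1, WT replicate 2 or ACC1 KO replicate 1. Zbtb16 had 0, 1, 26 and 1 UMIs, of which 20 lay in 1 cell of ACC1 KO 1 (difference 4.28 ± 0.98, edgeR adjusted p = 0.026), and without ACC1 KO replicate 1 the difference was 1.06. It did not pass there or without WT replicate 1. Atp8b4 had 0, 0, 13 and 8 UMIs in 0, 0, 6 and 5 cells, at least 4.68-fold more in ACC1 KO with a floor of 3 counts over the WT group, and stood at 347 to 419 CPM in comparison cells of every library. Its fitted difference of 10.73 (edgeR adjusted p = 0.029) rests on the zeros, and leaving out any 1 of the 4 libraries ended the call.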

How the data were processed

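Thymic cells from 2 WT and 2 ACC1 KO samples were profiled with the Chromium 3′ v3.1 kit, as the labels' protocols state. The authors deposited whole-number UMI counts per barcode over 32285 genes. Cell Ranger 7.0.0 and the build mm10 are named in the submitters' processing notes. Counts of reads sharing a UMI are collapsed, so PCR copies count once. Intervals and limits for a count of 0 cover counting error only. How barcodes were called and whether free RNA was removed were not stated in the labels.

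From these counts, cells were kept, gated and compared as stated in the report. The members, the gene lists and the tests were chosen with earlier results of these data known. Cells are not replicates, so UMIs were summed per library and class and tested with edgeR 4.0.16 (R 4.3.3, TMM scaling, filterByExpr, robust quasi-likelihood F test, no covariate). The p-values were adjusted by Benjamini-Hochberg across every gene in the fit, with a threshold of 0.05. The difference between classes was a class by genotype term with the library as a covariate. The SE of an edgeR change was worked back as its absolute log2 value over the square root of the F statistic. The p-value also uses the degrees of freedom of the test, which this SE leaves out. Levels are CPM of these sums. DESeq2 1.42.0 was an alternative test. Non-overlap was read on plain CPM and within-number values used a prior count of 2. Shares were tested by exact permutation (scipy 1.17.1), with exact Clopper-Pearson intervals at 95%. Doublets were scored within each library with the Scrublet method of scanpy 1.11.5, removing 0.8% per 1000 cells, as an alternative. Both edgeR tests were checked on simulated counts with 200 well-counted genes changed. These were drawn from the mean of each gene over all sums at a fixed spread, without effects of number, sex or cycle. Genes named are those of the gate and lists, the 15 and 10 genes at the ends of the level ranking, the 10 at each end of the cycling ranking, the called differences (the rule asked for up to 5 per direction, and more are given), and a set of lipid genes. Some results that fall under the rule are not reported here. Xist, Ddx3y and C77080 were named after their values were seen. Alternatives were other gate, quality, depth, doublet, filter and scaling choices, each library left out, and the replicate number as a block.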

Additional observations from a re-analysis of the deposited data

Results flagged for a closer look

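For 11 genes the genotype change in DP-gated cells differed from that in comparison iNKT cells by edgeR's test of the difference itself, at an adjusted p under 0.05 over 13424 genes. Those reported, as the log2 change in DP-gated cells minus that in iNKT cells, were -2.78 for Scd2, -1.77 for Aff3, -1.55 for Ccr9, -1.52 for Nebl, -7.52 for Fads2, -1.49 for Plxdc2 and -1.98 for Acsl3. They were 4.72 for Gna15, 4.28 for Zbtb16 and 10.73 for Atp8b4. Counts behind Gna15 and Zbtb16 lay mostly in 1 cell each, and the WT sums were 0 for Atp8b4 in DP-gated cells and for Fads2 in iNKT cells. Cycling cells were 45.9% of DP-gated cells in ACC1 KO 1, the highest of the 4 libraries, and Ccr9 and Plxdc2 were higher in quiet than in cycling cells of each library. Being deeper, cycling cells held a larger share of the summed UMIs than of the cells. The part of the cycling share in these 2 differences was not tested beyond the values without cycling cells, -0.65 and -0.74.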

How the results depend on the processing

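The share difference of -0.150 points turned positive without WT replicate 1 (1.48) and without ACC1 KO replicate 2 (1.02), and ran from -1.78 to 1.48 over the libraries left out. The cycling difference stayed positive in all 16 alternatives, from 1.60 to 23.7 points over the libraries left out. The genotype count of 0 was 1 with cycling cells left out (C77080), and 0 to 5 over the libraries left out: 3 without ACC1 KO replicate 1, 5 without ACC1 KO replicate 2 and 2 without WT replicate 1. With the replicate block it was 556, 349 higher and 207 lower. The labels do not say that a number marks a shared batch. In the data depth and the sex-linked genes moved with the number, and with 2 pairs whether it pairs the libraries cannot be settled. The difference of number 1 minus number 2 within WT correlated at 0.45 with that within ACC1 KO over 7411 genes. Of the block's higher calls 77 were ribosomal protein genes and 98.9% had a higher level in cycling cells, against 41.0% of all genes tested, and 98.6% of its lower calls were higher in quiet cells. In quiet cells alone the block gave 2 calls over 4096 genes, from sums with fewer UMIs, so this count and 556 are not directly comparable. The count of 11 differences was 2 with DESeq2, 5 with a mean of at least 10 CPM, 6 with no filter, and, in alternatives chosen after seeing the data, 7 with cycling cells left out and 1 (Scd2) with comparison sums thinned to the DP-gated depth. Over the libraries left out it was 1 to 16: 1 without ACC1 KO replicate 1, 4 without ACC1 KO replicate 2 and 7 without WT replicate 1. Genotype changes in DP-gated cells that changed sign, none of them called, were Scd2 (-0.027 with sums thinned, and -0.20 to 0.47 over the libraries left out), Acsl3 (-0.53 to 0.45), Insig1 (-0.13 to 0.97), Srebf1 (-0.44 to 0.015), Abca1 (-0.39 to 0.012) and Abcg1 (-0.48 to 0.055, with 0.36 when thinned to 2000 UMIs and 0.032 with cycling cells left out). The Gna15 difference was -7.73 with cycling cells left out. The cause was not tested. Depth limits genes below about 20 CPM, where WT 2 held few UMIs.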

Other observations

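Jun, an immediate early gene, was higher in the libraries numbered 2. It stood at 40.5, 134, 21.6 and 330 CPM in DP-gated cells, with the libraries in the order WT 1, WT 2, ACC1 KO 1 and then ACC1 KO 2, and at 41.9, 177, 43.3 and 278 CPM in comparison iNKT cells. Hspa1b, a heat shock protein, stood at 2.31, 7.26, 2.49 and 73.6 CPM in DP-gated cells, from 2, 2, 3 and 37 UMIs, highest in ACC1 KO 2, and at 17, 129, 6.05 and 218 CPM in iNKT cells. The whole list of 16 cell handling and immediate early genes did not split by number in DP-gated cells, at 2196, 2434, 2719 and 3824 CPM, and did in iNKT cells, at 2501, 3766, 2690 and 4639 CPM. In DP-gated cells both ACC1 KO sums of the list lay above both WT sums. Of its 11 genes tested there 0 were called, 4 lay above and 1 below, against 11.6% and 21.9% of all genes. Cd69 was also found most often in DP-gated cells of ACC1 KO 2, at 16.7%.

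DP-gated cells also held low type I interferon transcripts, with a 17-gene list summing to 235 to 276 CPM against 2252 to 2466 CPM in iNKT cells, and 15 of the 17 genes lower without overlap. Of the Notch pathway, Notch3, a receptor of early thymocytes, stood at 26.6, 29, 21.6 and 51.7 CPM against at most 0.115 CPM. It belongs to a list of 12 genes of the early DP stage and the stage before it, which was mixed. In that list 4 genes lay above and 5 below without overlap. The list summed to 450 to 533 CPM in DP-gated cells against 1326 to 2320 CPM.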
